A study of Mus musculus with 1078 samples.

Results

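The genes described here are 38 genes of the hypoxia response and of glycolysis, out of 21765 genes in the deposited tables, followed through 1078 single cells of mouse GL261 glioma. They were chosen by name from knowledge of the pathway, with earlier results of these data known. They fall into 14 glycolytic enzymes, 6 genes of glucose transport and flux control and 16 other targets of hypoxia-inducible factor (HIF). The remaining 2 are the HIF alpha subunits Hif1a and Epas1. All 38 are in the tables.

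GL261 is a glioma line that grows in the brain of immunocompetent C57Bl/6 mice. Tumor-bearing mice of both sexes received vehicle and a control antibody (control), the angiotensin receptor blocker losartan, an antibody against the checkpoint receptor PD1 (anti-PD1), or losartan with anti-PD1, and the losartan arms were treated before the antibody was first given. After tumor dissociation, CD31-positive, CD3-positive, CD45-negative and CD45-positive cells were sorted into plates and full-length cDNA of each cell was sequenced by Smart-seq2. The 16 plates hold 1 plate for each sort and treatment, and no label names the mouse behind a cell. Each treatment is therefore 1 sample in each sort, treatment and plate cannot be told apart, and no test was made between treatments. The line, the strain and the intracranial site are common to all groups, and the whole model is 1 tumor line.

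Cell types are the authors' labels, which they gave to clusters of these same values. They were checked against marker lists. Tumor endothelial cells (TECs) of the CD31-positive sort had all 8 endothelial markers detected in 25% or more of cells on each of the 4 plates, and malignant cells of that sort had no more than 1 of the 8. The 8 cells labelled malignant on the anti-PD1 plate of the CD31-positive sort stood apart, with a summed astrocyte marker level of 523 against 5.16 to 17 in malignant cells of the other 3 plates, and the 8 on the anti-PD1 plate of the CD45-negative sort had a summed cell cycle level of 5.03 against 75.8 to 90.6. Values for malignant cells under anti-PD1 are given with that reservation and are left out of the treatment comparisons. The 49 cells of the losartan plate of the CD45-negative sort carry losartan in the GEO labels and losartan+anti-PD1 in another column of the authors' cell table. The GEO label is used, and each result on that plate rests on it.

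Under low oxygen the alpha subunits of HIF escape degradation by the prolyl hydroxylases Egln1 and Egln3, pair with a constant partner and bind short DNA elements near their target genes. The targets include glucose transporters, nearly every enzyme of glycolysis, lactate dehydrogenase (Ldha), the lactate exporter Slc16a3, the mitophagy receptors Bnip3 and Bnip3l and secreted factors such as adrenomedullin (Adm). Hif1a is found in most cells, whereas Epas1 is known for its high level in endothelium. Many glioma cells and activated T cells run glycolysis at a high rate with oxygen present, and brain endothelium carries the glucose transporter Slc2a1 at the blood-brain barrier, so these genes also mark cell identity.

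The start-site regions of Slc2a1, Ldha, Bnip3 and Adm are shown because the comparisons below turn on these genes. The letters searched were ACGTG and GCGTG, the core of the HIF element, on both strands, so that they can also read CACGT and CACGC. Each window runs from 250 bases before to 50 bases after a RefSeq start (GRCm38.p6), is printed 5′ to 3′ on the gene's strand, and has each match in capitals. The palindrome CACGTG holds a match on each strand and counts as 2.

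Slc2a1, chr4:119108495-119108794, + strand: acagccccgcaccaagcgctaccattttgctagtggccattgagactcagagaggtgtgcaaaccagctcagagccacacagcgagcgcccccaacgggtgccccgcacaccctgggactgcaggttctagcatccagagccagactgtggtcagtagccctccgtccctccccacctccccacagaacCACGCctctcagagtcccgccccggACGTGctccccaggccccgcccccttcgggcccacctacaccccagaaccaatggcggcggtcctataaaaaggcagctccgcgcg

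Ldha, chr7:46845554-46845853, + strand: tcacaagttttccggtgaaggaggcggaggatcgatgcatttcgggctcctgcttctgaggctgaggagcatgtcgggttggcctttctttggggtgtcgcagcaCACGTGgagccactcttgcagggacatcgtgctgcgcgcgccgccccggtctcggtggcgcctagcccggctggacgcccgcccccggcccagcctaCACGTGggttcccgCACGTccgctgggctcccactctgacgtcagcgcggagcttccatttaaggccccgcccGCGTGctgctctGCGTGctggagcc

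Bnip3, chr7:138909457-138909756, - strand: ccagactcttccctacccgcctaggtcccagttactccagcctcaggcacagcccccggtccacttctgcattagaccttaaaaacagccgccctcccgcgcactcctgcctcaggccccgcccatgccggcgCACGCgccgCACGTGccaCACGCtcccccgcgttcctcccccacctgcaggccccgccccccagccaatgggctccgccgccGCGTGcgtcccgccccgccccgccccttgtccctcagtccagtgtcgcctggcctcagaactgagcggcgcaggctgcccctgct

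Adm, chr7:110627407-110627706, + strand: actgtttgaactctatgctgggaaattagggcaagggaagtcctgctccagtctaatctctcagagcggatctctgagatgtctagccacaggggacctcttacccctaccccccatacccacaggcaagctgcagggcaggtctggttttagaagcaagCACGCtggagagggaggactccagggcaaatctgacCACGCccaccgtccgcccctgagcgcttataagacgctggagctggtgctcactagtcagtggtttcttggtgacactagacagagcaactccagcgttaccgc

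The Ldha window held 7 matches, Bnip3 5, Slc2a1 2 and Adm 2. Ldha has a second listed start, whose window held 2. A window was found for 34 of the 38 genes, 1 of them by its older symbol, and none for Slc2a3, Bnip3l, Ndrg1 and Epas1. At least 1 match, in any listed window of the gene, was present for 32 of the 34 (94.1%, exact 95% interval 80.3 to 99.3%) and for 46.7% of all 27025 genes with a window. With ACGTG alone the shares were 73.5% and 21.8%. The members' windows, taking the richest of each gene, also held more G and C, with a median of 67% against 53.3%, and the part of base composition in these shares was not tested. A gene with more listed windows has more chances of a match, and the part of that was not tested either. The members were chosen by name from this pathway, so their share is a description and no test. A match is a description of letters and not a measured site.

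The unit of the deposited values differed between sorts. The CD31-positive and CD3-positive plates hold TPM (transcript counts per length, scaled to a fixed sum), and the other plates hold estimated read counts. Every cell was scaled to a sum of 100000 (TP100K). Levels of different genes are therefore compared only within the CD31-positive and CD3-positive sorts, and levels of 1 gene only within a sort. The median cell of the CD45-negative sort had 494100 reads and that of the CD45-positive sort 286371, and the depth of the TPM cells is not known. Malignant cells had medians of 7008 to 7188 detected genes on 3 of the 4 CD31-positive plates and 5304.5 on the anti-PD1 plate, TECs 2999 to 3620 and T cells 1954 to 2135.

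**Figure D1:**
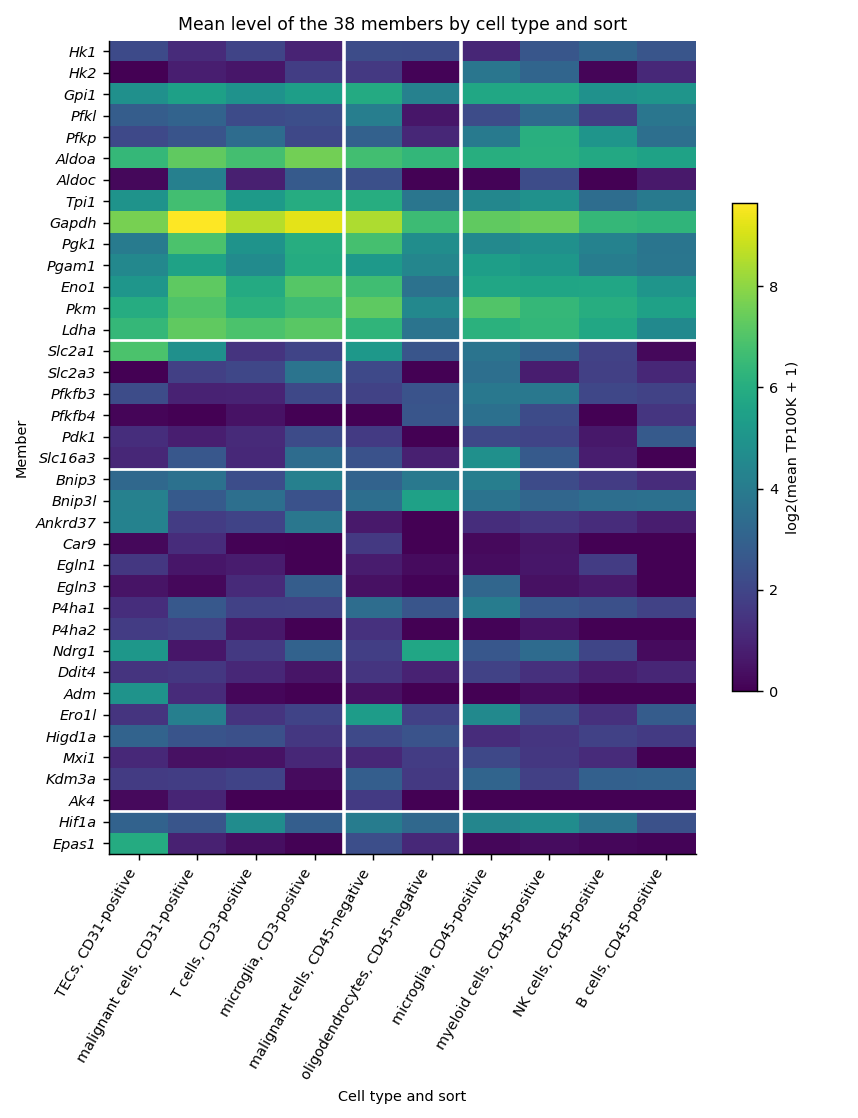
Mean level of the 38 members (rows, grouped by list) in each cell type and sort (columns), in colour as TP100K on a log scale. Epas1, Adm and Slc2a1 stand out in TECs (means of 60.3, 29.7 and 119.99 TP100K), Gapdh in malignant cells of the CD31-positive sort (794 TP100K) and Ndrg1 in oligodendrocytes (51.1 TP100K). Colours are comparable along a row within a sort and, in the CD31-positive and CD3-positive sorts, also along a column.

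Per transcript length, Gapdh, the dehydrogenase in the middle of the pathway, was the most abundant of the 14 enzymes in each of the 3 cell types with TPM values. It took 34.9% of their summed level in TECs, 46% in malignant cells of the CD31-positive sort and 43.1% in T cells. The summed mean level of the 14 enzymes was 569 TP100K in TECs and 1726 in malignant cells. It was 868.5 in T cells, which come from another sort, so their levels here are not set against those of the other types. Ldha and aldolase A (Aldoa) came next, at 14.8% and 14.7% of the sum in TECs, 9.01% and 9.08% in malignant cells and 13.8% and 12.5% in T cells. Hexokinase 2 (Hk2), which commits glucose to the pathway, was near 0 in TECs at 0.0174 TP100K, 0.760 in malignant cells and 0.503 in T cells. Several of these enzymes (Gapdh, Ldha, Aldoa, Pgk1, Eno1, Tpi1, Pkm) have near-identical processed copies in the genome, and their values are uncertain to the extent that reads were split among copies.

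Epas1 was above 0 in 98.97% of the TECs of the CD31-positive sort, with a mean of 60.3 TP100K and plate means of 37.4 to 76.8. It was above 0 in 16.2% of the malignant cells of that sort (mean 0.835 TP100K). Hif1a had a mean of 7.21 TP100K in those TECs and of 4.85 in those malignant cells. In T cells, which come from another sort and are not set against them, Epas1 was above 0 in 30 of 327 cells (mean 0.291 TP100K) and Hif1a had a mean of 24.5 TP100K, with plate means of 17.6 to 30.6.

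To ask how vessel cells and tumor cells of the same plates differ in these genes, TECs were compared with malignant cells of the CD31-positive sort, with the plate as a block (limma on log2 of the plate mean plus 1 TP100K, 4 plates, Benjamini-Hochberg adjustment over 9979 genes). The glycolytic enzymes were higher in malignant cells, and Epas1, Adm, Ndrg1, Slc2a1, Ankrd37 and Bnip3l were higher in TECs. Of the 35 members that could be tested, 15 were higher in malignant cells and 6 in TECs, where 16.5% of all genes tested were higher in malignant cells and 12.8% in TECs. Pfkfb4, Car9 and Egln3 were above 0 in too few cells to be tested. The cell type labels came from the same values, so these tests are not independent of the labels.

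Of the 14 glycolytic enzymes 10 were higher in malignant cells and none in TECs, with a median log2 difference of 0.95 where the median over all genes was 0.08. Phosphoglycerate kinase (Pgk1), the first step that yields ATP, had plate means of 12.3, 20.2, 12.9 and 15.5 TP100K in TECs on the control, losartan, anti-PD1 and combination plates, and of 106.4, 157.1, 50.02 and 117.6 in malignant cells. The lowest malignant plate was more than the highest TEC plate, and the log2 difference was 2.66 ± 0.30 (SE, limma adjusted p = 0.000327). Gapdh was at 218.4, 268.6, 145.6 and 157.98 TP100K in TECs and at 665, 955, 490 and 846 in malignant cells, with a log2 difference of 1.90 ± 0.27 (limma adjusted p = 0.000935). Enolase 1 (Eno1) at 2.22, triosephosphate isomerase (Tpi1) at 1.89 and phosphoglycerate mutase (Pgam1) at 1.53 followed on the same log2 scale.

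Ldha, which turns pyruvate into lactate, differed less. It was at 60.4, 122.2, 74.3 and 59.6 TP100K in TECs and at 134.1, 218.7, 113.9 and 144.8 in malignant cells, so that the losartan plate of TECs overlapped the anti-PD1 plate of malignant cells (log2 difference 0.96 ± 0.27, limma adjusted p = 0.0237). Aldoa (0.93), the pyruvate kinase Pkm (0.88) and Hk2 (0.63) also passed the test. The calls of Ldha, Aldoa, Pkm and Hk2 were lost with no filter and without the control, losartan or losartan+anti-PD1 plate. They were also lost among cells with 2000 to 6000 detected genes, at 0.34, 0.52, 0.17 and 0.80. Aldolase C (Aldoc) had the widest log2 difference of the 14, 3.86, with 171.9 TP100K in the 8 malignant cells of the anti-PD1 plate against 3.39 to 8.99 on the other 3 plates and at most 0.290 in TECs. The Aldoc call was lost with a pseudocount of 10 (1.57) and with no filter. That of Pgam1 was lost among cells with 2000 to 6000 detected genes (0.82). Gpi1, Pfkl, Pfkp and Hk1 did not pass, with log2 differences of 0.62, 0.46, 0.27 and -0.95.

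The 2 main glucose transporters went opposite ways. Slc2a1 was at 93.1, 178.2, 99.6 and 85.5 TP100K in TECs and at 20.5, 81.4, 2.45 and 10.4 in malignant cells. Every TEC plate was above every malignant plate, although the losartan plate of malignant cells came close to the lowest TEC plate (log2 difference -2.76 ± 0.52, limma adjusted p = 0.00415). With the 75th percentile scaling, where its log2 difference was -1.51, and with no filter on low values, Slc2a1 was not called. The difference was in level rather than in detection, since 87.7% of TECs and 89.7% of malignant cells were above 0. Slc2a3, the high-affinity transporter of neurons and many tumors, was at 0 in TECs of 3 plates and reached 1.41 to 6.82 TP100K in malignant cells of 3 plates (log2 difference 1.40, limma adjusted p = 0.0231). Slc16a3, which carries lactate out of the cell, was also higher in malignant cells by 1.49 on the log2 scale. The calls of Slc2a3 and Slc16a3 were lost with no filter and among cells with 2000 to 6000 detected genes. Without the control, losartan or losartan+anti-PD1 plate they were lost too, and that of Slc2a3 with a pseudocount of 10. Pfkfb3 (-1.28), which raises the activator of phosphofructokinase, and Pdk1 (-0.53), which holds pyruvate back from the mitochondria, did not pass.

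Among the 14 other HIF targets tested 3 were higher in malignant cells and 4 in TECs, and the median log2 difference was -0.12. Adm, a vessel-relaxing peptide, was at 57.5, 19.8, 23.7 and 20.3 TP100K in TECs and at 0.675, 2.13, 0 and 1.46 in malignant cells (log2 difference -3.90 ± 0.44, limma adjusted p = 0.000317). Ndrg1, a stress-response gene that is also high in oligodendrocytes, was at 6.02, 55.5, 35.6 and 12.6 TP100K in TECs and at 0.170, 0.193, 5.91 and 0 in malignant cells (log2 difference -3.58 ± 0.51, limma adjusted p = 0.00101). For both genes the plates of the cell types did not overlap, for Ndrg1 by a narrow gap between control TECs and the malignant cells of the anti-PD1 plate, and the spread between plates of TECs was wide. Ankrd37 (-2.61) and Bnip3l (-1.20) were also higher in TECs. The Ankrd37 call was lost with no filter and with the mean of log2 values (-0.61), and that of Bnip3l with the 75th percentile scaling (-0.044), the mean of log2 values (-0.22) and without the losartan or the losartan+anti-PD1 plate. The genes higher in malignant cells were Ero1l (1.86), an oxidase that forms disulfide bonds in secreted proteins, P4ha1 (1.49), a collagen prolyl hydroxylase, and the adenylate kinase Ak4 (0.82). The Ero1l call was lost with both other pseudocounts, with no filter, among cells with 2000 to 6000 detected genes (0.98) and without the plate block. It was also lost without the control, losartan or losartan+anti-PD1 plate. Ak4 was not called with no filter, in that gene range and without the control or losartan plate. P4ha1 was not called in that range (0.89) and without the control plate. Bnip3 had a log2 difference of 0.69 and an adjusted p of 0.224 in limma.

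Of the alpha subunits, Epas1 was higher in TECs by the widest margin of the 35 members tested. Its plate means were 37.4, 76.8, 64.6 and 41.6 TP100K in TECs and 0.0518, 1.85, 6.16 and 0.00896 in malignant cells (log2 difference -4.64 ± 0.40, limma adjusted p = 7.71e-05). Hif1a was at 7.43, 7.66, 7.43 and 3.88 TP100K in TECs and at 5.05, 5.56, 4.37 and 4.45 in malignant cells. The ranges of Hif1a overlapped, and it did not pass the test (log2 difference -0.34 ± 0.32, limma adjusted p = 0.447).

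Genes of the same pathways outside the 38 were taken from fixed lists. Of 20 further glycolysis genes 12 were tested, of which 5 were higher in malignant cells (Ldhb, Bpgm, Gpd1, Eno2 and Pdk3) and 1 in TECs, the lactate and pyruvate transporter Slc16a1 (log2 difference -2.80). Of 25 further HIF pathway genes 16 were tested, of which Mif was higher in malignant cells (2.66) and Bhlhe40 (-2.34) and Plod1 (-1.19) were higher in TECs. The angiogenic factor Vegfa had a log2 difference of 0.16 (limma adjusted p = 0.289).

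The count of members called differed with the plates and the cells used. With the plates left out in turn, the members higher in malignant cells numbered 6 without the control plate, 7 without losartan, 17 without anti-PD1 and 8 without losartan+anti-PD1, and those higher in TECs 6, 5, 8 and 6. Among cells with 2000 to 6000 detected genes, which left 4 to 7 malignant cells a plate, 5 members were higher in malignant cells and 6 in TECs. That range changed both the depth and the number of cells, and the part of each was not tested. The share of all genes called was not computed for these alternatives. A change in the members can therefore not be told apart from a change in all genes. Pgk1, Gapdh, Eno1, Tpi1, Epas1, Adm and Ndrg1 were called in each of the 11 alternatives run.

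**Figure D2:**
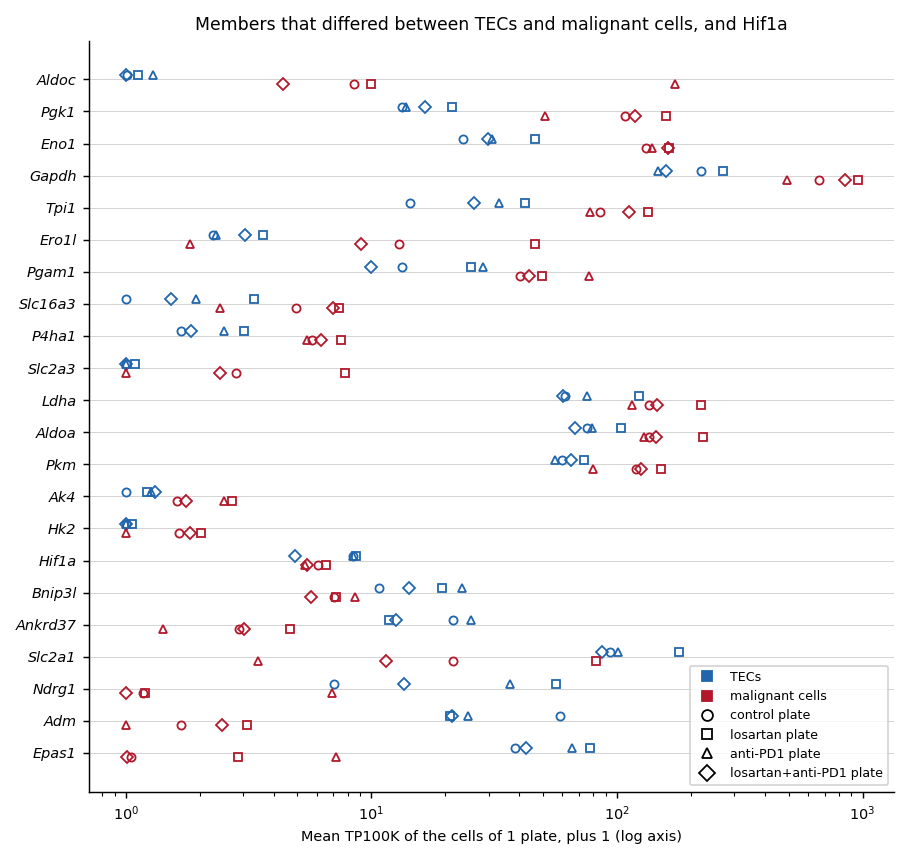
Mean TP100K plus 1 (log axis) of the members that differed between TECs and malignant cells, with Hif1a, where each point is the cells of 1 plate of the CD31-positive sort. The 4 malignant plates of Pgk1 (50.02 to 157.1 TP100K) lie right of the 4 TEC plates (12.3 to 20.2), those of Slc2a1, Adm, Ndrg1 and Epas1 lie left of them, and those of Hif1a overlap.

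Whether the hypoxia programme of tumor cells shifted with losartan was followed in malignant cells of both sorts. Under losartan alone, the mean levels of the glycolytic enzymes and of the other HIF targets were mostly above control in both sorts, with the glucose transporters Slc2a1 and Slc2a3 and the mitophagy receptor Bnip3 above by more than a log2 ratio of 1 in each. Under losartan+anti-PD1 these 3 genes were past a log2 ratio of 1 in the CD45-negative sort and not in the CD31-positive sort. Most of the measured further glycolysis genes were below control under losartan in the CD31-positive sort. Each ratio compares 1 plate with 1 plate, the losartan and losartan+anti-PD1 plates of a sort share 1 control plate, and ratios are of means plus 1 TP100K for members detected in 25% or more of one or the other group. With no replicate plates, none of these differences has a test.

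In the CD31-positive sort (25 losartan cells, 33 control cells), 13 of the 14 enzymes had a higher mean under losartan, with a median log2 ratio of 0.51, and 11 of the 12 measured other HIF targets, with a median of 0.64, where the median over 9919 genes was -0.07. Of the 12 measured further glycolysis genes, 2 had a higher mean under losartan and 10 a lower one, with a median of -0.48. A log2 ratio above 1 was reached by 5 members and a ratio below -1 by none. Of all genes 0.544% were above and 1.24% below. Slc2a1 had a mean of 20.5 TP100K under control and 81.4 under losartan (1.94), with medians of 9.67 and 17.97. Bnip3 was at 7.22 and 24.6 TP100K (1.64), Ero1l at 12 and 45.3 (1.84), Slc2a3 at 1.80 and 6.82 (1.48) and the collagen hydroxylase P4ha2 at 2.09 and 6.47 (1.27). The cells overlapped for each of these genes, and the highest cell held 42.7% of the Ero1l sum and 45.98% of the Slc2a3 sum under losartan. Without the highest cell of each group the ratios of Slc2a1, Slc2a3, Bnip3 and Ero1l were 2.36, 1.26, 1.47 and 1.65 and that of P4ha2 was 0.93.

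Ldha was at 134.1 TP100K under control and 218.7 under losartan in the same sort (0.70), and Hif1a at 5.05 and 5.56 (0.12). Epas1 was too low to be measured, with means of 0.0518 and 1.85 TP100K. The summed cell cycle markers were at 126.02 under control and 93.6 under losartan, and the dissociation response genes at 134.5 and 137.7. The part of these differences between plates in the ratios was not tested.

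The CD45-negative sort gave a second plate of malignant cells for each treatment. With 47 losartan cells and 49 control cells, all 14 enzymes had a higher mean under losartan, with a median log2 ratio of 0.47, and so did all 12 measured other HIF targets, with a median of 0.53, where the median over 9857 genes was 0.10. Among cells with 2000 to 6000 detected genes, 10 under losartan and 8 under control, the median of the enzymes was -0.21. Over all cells of these plates, 7 further glycolysis genes had a higher mean under losartan and 4 a lower one, with a median of 0.04. Of the members 5 were above a log2 ratio of 1 and none below -1, where 1.21% of all genes were above and 0.284% below. Slc2a1 had means of 8.24 and 45.3 TP100K under control and losartan (2.33) and medians of 6.5 and 22.2, and was above 0 in 33 of 49 and 39 of 47 cells. Bnip3 had means of 1.89 and 10.6 TP100K (2.01) and was above 0 in 18 and 23 cells. Slc16a3 (1.45), Slc2a3 (1.25) and the MYC antagonist Mxi1 (1.01) were the others. Ldha, at 70.6 and 72.1 TP100K, and Hif1a, at 16.2 and 16.4, were near control, with ratios of 0.03 and 0.02. Epas1 was at 0.625 and 4.46 TP100K and was not measured. This is the plate that the cell table also lists as losartan+anti-PD1.

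Of the 5 members past a log2 ratio of 1 in each sort, Slc2a1, Slc2a3 and Bnip3 were in both. The share of all genes past 1 in both sorts was not computed, so this overlap cannot be set against it. These plates come from the same treatment, and whether they come from the same mice is not given in the sources used here. Carbonic anhydrase 9 (Car9), a classical marker of hypoxic tumor tissue, was seen in few malignant cells, namely 7 of 33 control and 5 of 25 losartan cells in the CD31-positive sort and 2 of 49 and 6 of 47 in the CD45-negative sort. Its mean rested on few cells, with 71.03% and 60.8% of the sum in the highest losartan cell, and it was below the limit for a ratio.

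Under losartan+anti-PD1 the sorts differed. In the CD31-positive sort (51 cells), no member was past a log2 ratio of 1 against control in either direction, where 0.571% of all genes were above and 0.842% below, and 13 of the 14 enzymes had a higher mean. The medians of the enzymes and of the other HIF targets were 0.15 and 0.04. Slc2a1 was at 10.4 TP100K against 20.5 (-0.91), Ldha at 144.8 against 134.1 (0.11), Bnip3 at 7.46 against 7.22 (0.04), Hif1a at 4.45 against 5.05 (-0.15), and Epas1 was not measured. In the CD45-negative sort (44 cells), 8 members were above a ratio of 1 and none below -1, where 1.3% of all genes were above and 1.08% below. These were Slc2a1 (2.66), Ero1l (2.09), Bnip3 (1.88), Slc16a3 (1.67), Slc2a3 (1.47), Aldoc (1.20), Pfkp (1.15) and Pfkl (1.05), and the median of the enzymes was 0.58 and that of the other HIF targets 0.45, with a median over all genes of -0.02. Ldha was at 102.7 TP100K against 70.6 (0.54), Hif1a at 14.8 against 16.2 (-0.12), and Epas1 was not measured.

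Slc2a1 and Ero1l of the CD45-negative losartan+anti-PD1 plate rested on few cells. The mean of Slc2a1 was 57.2 TP100K and the median 8.76, and the highest cell, at 1171 TP100K, held 46.5% of the sum. The mean of Ero1l was 79.6 TP100K against 17.9 under control, the median 11.3 against 11.9, and the highest cell held 34.5% of the sum. Without the highest cell of each group the log2 ratios were 1.96 and 1.62.

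**Figure D3:**
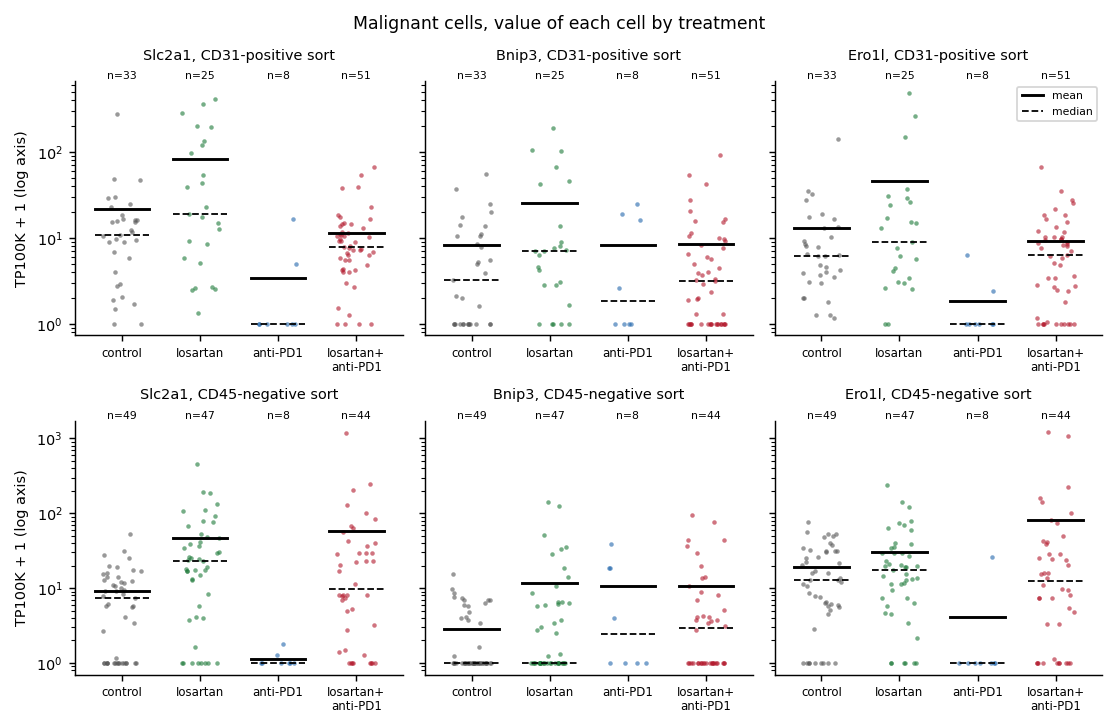
Value of each malignant cell, as TP100K plus 1 on a log axis, by treatment, for Slc2a1, Bnip3 and Ero1l in the CD31-positive (upper row) and CD45-negative (lower row) sorts, with the number of cells, the mean (solid) and the median (dashed) marked. Under losartan the Slc2a1 median was 17.97 against 9.67 TP100K in the CD31-positive sort and 22.2 against 6.5 in the CD45-negative sort, and the cells of the treatments overlap throughout.

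Single cells of 1 treatment varied widely. A score for each cell, the mean of ln(TP100K + 1) over the 16 other HIF targets, was 0.73 ± 0.33 (SD over 33 cells) under control and 0.99 ± 0.57 (25 cells) under losartan in the CD31-positive sort, and 0.68 ± 0.27 (49 cells) and 0.89 ± 0.47 (47 cells) in the CD45-negative sort. Cells of 1 plate are not replicates of a treatment, so these SDs describe cells only. Above the highest control cell lay 4 of 25 losartan cells and 1 of 51 losartan+anti-PD1 cells in the CD31-positive sort, and 7 of 47 and 7 of 44 in the CD45-negative sort. The HIF score and the score of the 14 enzymes went together among malignant cells of a plate, with Pearson's r between 0.48 (49 control cells, CD45-negative sort) and 0.83 (25 losartan cells, CD31-positive sort), a description in which the cells share library depth. On that losartan plate the number of detected genes had an r of -0.02 with the enzyme score and of -0.31 with the HIF score, whereas on its control plate these were 0.70 and 0.57.

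**Figure D4:**
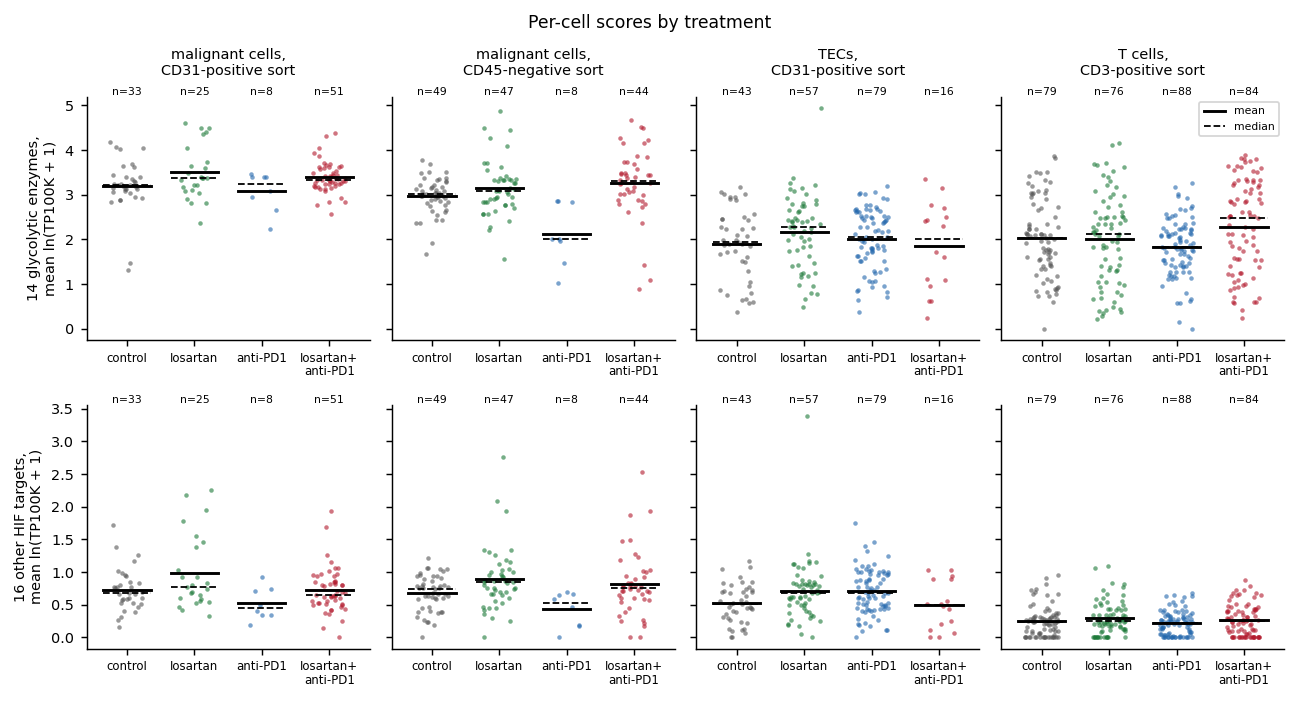
Scores of each cell, the mean ln(TP100K + 1) of the 14 glycolytic enzymes (upper row) and of the 16 other HIF targets (lower row), by treatment, in malignant cells of both sorts, TECs and T cells, with the mean (solid) and median (dashed) marked. In malignant cells 4 of 25 (CD31-positive sort) and 7 of 47 (CD45-negative sort) losartan cells exceed the highest control cell in the HIF score, and the highest TEC, under losartan, reaches 3.39.

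In TECs the levels differed between the authors' clusters as well as between treatments, and the part of each was not tested. The authors' clusters 7 and 12 hold 57 and 23 TECs of the CD31-positive sort and cluster 3 the rest, and the plates drew on them unequally. Control cells were 3, 28 and 12 in clusters 3, 7 and 12, losartan cells 29, 24 and 4, anti-PD1 cells 78, 1 and 0, and losartan+anti-PD1 cells 5, 4 and 7. Slc2a1 had means of 150.6, 105.2 and 3.88 TP100K in clusters 3, 7 and 12. Epas1 was at 81.2, 20.8 and 53.1 TP100K, Ndrg1 at 51, 4.54 and 13.6, and Adm at 18, 63.4 and 5.36. Slc2a1 was thus close to absent in cluster 12, with 7 of 23 cells above 0, where Epas1 was above 0 in 22 of 23. The median number of detected genes in the 3 clusters was 2714, 4252 and 1660. The clusters were built on these values, so these levels are a description.

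Under losartan, TECs had mean levels above control for all 12 measured enzymes, with a median log2 ratio of 0.57 where all genes had 0.05. Scaled to the 75th percentile of each cell instead, that median was 0.25 and that of all genes -0.18. Of the members 5 were above a ratio of 1 and 2 below -1, where 9.37% of all genes were above and 6.35% below. Tpi1 was at 41.1 TP100K against 13.4 (1.55), Ldha at 122.2 against 60.4 (1.0), the prolyl hydroxylase Egln1 at 3.5 against 1.12 (1.09), Ndrg1 at 55.5 against 6.02 (3.01) and Epas1 at 76.8 against 37.4 (1.02). Pdk1, at 0.399 against 3.20 (-1.59), and Adm, at 19.8 against 57.5 (-1.49), were lower. Slc2a1 was at 178.2 against 93.1 (0.93) and Hif1a at 7.66 against 7.43 (0.04), and Bnip3 was in too few cells for a ratio, with 10.1 against 5.06 TP100K.

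Within clusters some of these differences held and others did not. In cluster 7, with 28 control and 24 losartan cells, Adm was at 87.6 TP100K under control and 33.6 under losartan, Ldha at 79.1 and 148.5 and Tpi1 at 17.9 and 43.3. Without the highest cell of each treatment these were 65.8 and 21.5 for Adm, 71.1 and 118.1 for Ldha and 16.03 and 35.48 for Tpi1. Ndrg1 was at 0.433 and 8.24 TP100K there, with 3 cells above 0 in each, and 1 losartan cell at 153.9 TP100K held most of the sum, so that the means were 0.165 and 1.90 without the highest cells. Slc2a1 was at 109.1 and 98.1 TP100K and Epas1 at 20.7 and 20.8 in that cluster, so the differences in these genes over all TECs were not seen there. In cluster 3, Ndrg1 was at 101.3 TP100K in 29 losartan cells, 36.1 in 78 anti-PD1 cells and 18.2 in 3 control cells.

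Under anti-PD1, where 78 of 79 TECs were of cluster 3, 5 members were above a ratio of 1 against control and 2 below -1, where 10.5% of all genes were above and 7.4% below. Ndrg1 (2.38), Tpi1 (1.20), Kdm3a (1.14), a histone demethylase, Bnip3l (1.12) and Pgam1 (1.10) were above, and Pfkfb3 (-1.62) and Adm (-1.24) were below. Slc2a1 (0.10), Ldha (0.29), Hif1a (0.00) and Epas1 (0.77) were within a ratio of 1, and Bnip3 was not measured. Under losartan+anti-PD1, with 16 TECs, no member was above and Adm (-1.46) and Pdk1 (-1.01) were below, where 12.4% of all genes were above and 13.4% below. Slc2a1 was at 85.5 TP100K (-0.12), Ldha at 59.6 (-0.02), Hif1a at 3.88 (-0.79) and Epas1 at 41.6 (0.15). Adm was thus lower on all 3 treated plates than on the control plate, which they share. Cluster 7, where Adm was highest, held 28 of 43 control TECs and 24 of 57 under losartan. It held 1 of 79 under anti-PD1 and 4 of 16 under losartan+anti-PD1. The part of this mix in the Adm ratios was not tested. Against anti-PD1, the losartan+anti-PD1 TECs had a median log2 ratio of -0.14 over 12 enzymes and -0.87 over 8 other HIF targets. All genes had -0.10. With the 75th percentile scaling these were 0.56, -0.13 and 0.23. In the main scaling, 2 of the 12 enzymes and 4 of the 8 other HIF targets were below a ratio of -1 and none above 1. Of the 3 measured genes of glucose transport and flux control, 1 was above 1 and none below -1. The share of all genes past these limits is not given for this comparison, so the counts cannot be set against it.

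**Figure D5:**
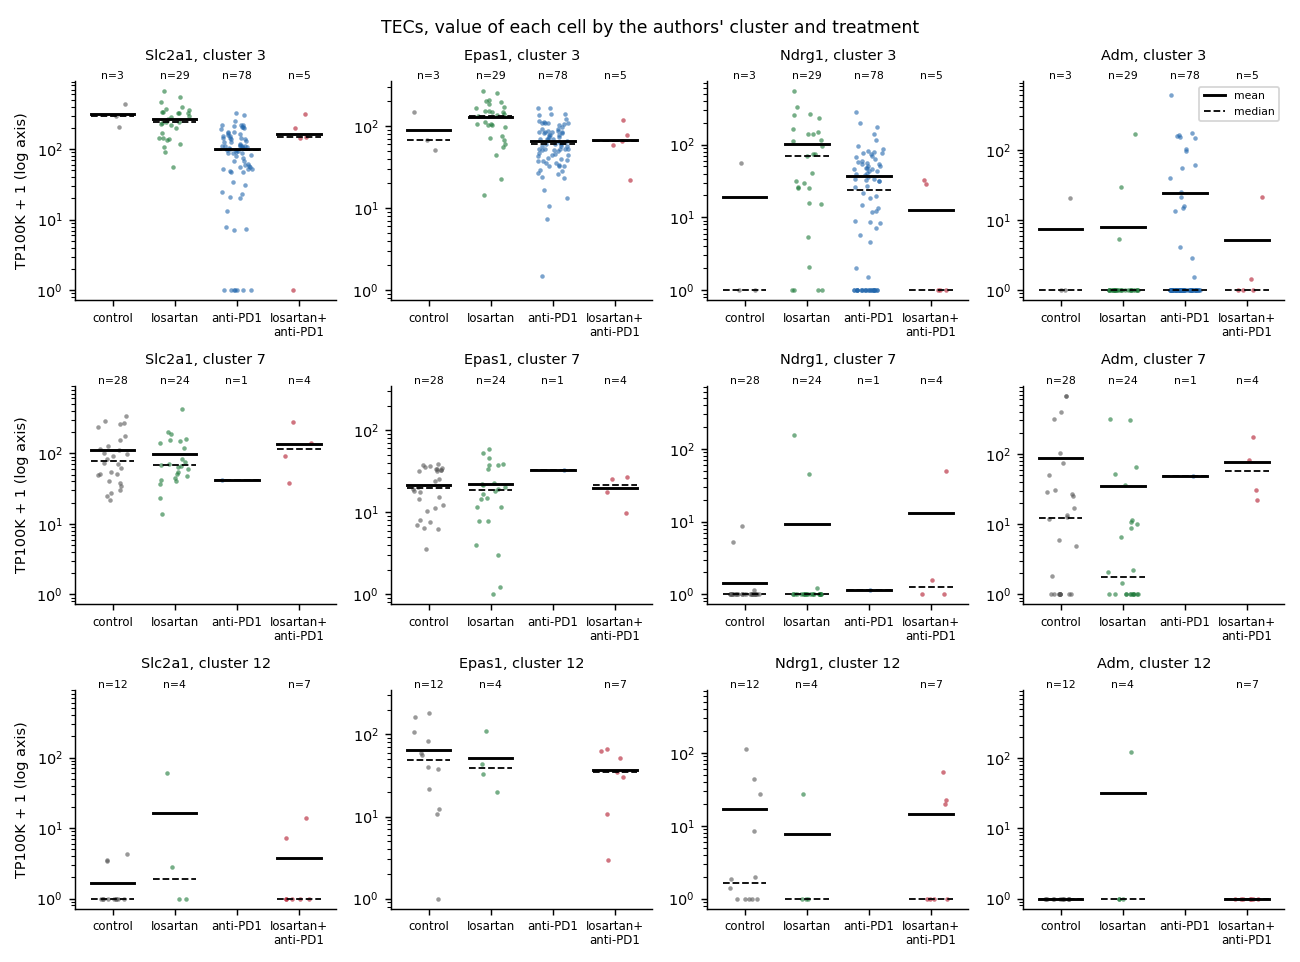
Value of each TEC, as TP100K plus 1 on a log axis, by treatment within the authors' clusters 3, 7 and 12, for Slc2a1, Epas1, Ndrg1 and Adm. Adm in cluster 7 had a mean of 87.6 TP100K under control and 33.6 under losartan, and Slc2a1 was above 0 in 7 of 23 cells of cluster 12 and in all 57 of cluster 7.

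The TEC with the highest scores was a losartan cell of cluster 7, with an enzyme score of 4.95 and a HIF score of 3.39, where the highest control TEC had 3.18 and 1.17. It had all 8 endothelial markers above 0 and a summed malignant marker level of 0.945 TP100K, and 1 astrocyte marker gave 208.7 TP100K. Its Gapdh was at 2661, Ldha at 847, Adm at 299, Bnip3 at 245.8 and Ero1l at 113.2 TP100K. Hif1a was at 0 and Epas1 at 2.06 TP100K in that cell.

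T cells of the CD3-positive sort had few measured HIF targets, 3 of 16, so that the enzymes carried the comparison. Against control, no member was past a log2 ratio of 1 in either direction under any treatment. Of all genes 3.12% were above and 2.75% below under losartan, 4.07% and 4.1% under anti-PD1, and 3.24% and 1.62% under losartan+anti-PD1. Hif1a was at 20.5, 30.6, 17.6 and 29.9 TP100K on the control, losartan, anti-PD1 and combination plates, Ldha at 125.6, 129.1, 72 and 155.6, and Gapdh at 381, 445, 240.99 and 443. The anti-PD1 plate was lowest for all 3 genes, and 10 of the 12 measured enzymes were below control there, with a median log2 ratio of -0.32 where all genes had 0.01. Control cells were 59 of cluster 0 and 20 of cluster 4, and anti-PD1 cells 32 and 56. Cluster 4 was also lower than cluster 0 for these genes over all plates, with Gapdh at 224.4 and 433 TP100K, Ldha at 65.1 and 141.02 and Hif1a at 11.4 and 29.6, a description since the clusters were built on these values. Slc2a1 was low, at 0.788, 3.32, 1.31 and 1.55 TP100K, and 37 of 327 T cells were above 0. Bnip3 and Epas1 were not measured, at 1.99 to 6.08 and 0.0755 to 0.569 TP100K.

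Set against anti-PD1, the losartan+anti-PD1 plate had higher means for all 13 measured enzymes, with a median log2 ratio of 0.55. Of the members 4 were above 1 and none below -1, where 5.72% of all genes were above and 3.25% below, namely the phosphofructokinase Pfkp (1.45), Ldha (1.10), Tpi1 (1.06) and Pkm (1.02). Hif1a had a ratio of 0.73. The losartan+anti-PD1 plate held 72 cells of cluster 0 and 12 of cluster 4, against the 32 and 56 under anti-PD1. The median of the enzymes was 0.70 within cluster 0 and -0.15 within cluster 4.

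Among cells of the CD45-positive sort, where the values are read counts, microglia and myeloid cells were compared over plates by edgeR's quasi-likelihood test with the plate as a block, and so were natural killer (NK) cells and microglia. The anti-PD1 plate held 3 myeloid cells and 2 NK cells, below the minimum of 5, so these types entered from the other plates only. No member was called in either comparison. Between myeloid cells and microglia 0% of 10759 genes passed in either direction, and 2 of the 34 members tested had an unadjusted p below 0.05, as did 4.82% of all genes. DESeq2 called 1 member, Aldoc, higher in myeloid cells, and limma on log2 means none, where these tools called 1.4% and 1.05% of their genes higher in myeloid cells. Between NK cells and microglia 0.177% of genes were higher in NK cells and 1.39% in microglia, and 8 of 34 members had an unadjusted p below 0.05, all with a higher level in microglia, as did 9.85% of all genes in that direction. Pfkfb3 had a log2 difference of NK cells minus microglia of -3.72 (edgeR adjusted p = 0.0531) and Gapdh of -1.50 (edgeR adjusted p = 0.0880). DESeq2 and limma on log2 means each called 7 members, 6 of them the same (Gapdh, Hk2, Pfkfb3, Pfkfb4, Slc2a1 and Slc16a3), and all 7 were higher in microglia in each. Of all genes, DESeq2 called 9.14% and limma 7.18% higher in microglia. Hif1a had means of 20.6, 24.6 and 11.9 TP100K in microglia, myeloid cells and NK cells and Epas1 of 0.134, 0.239 and 0.138.

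The microglia label covers a pair of clusters that differ in identity and in these genes. The 51 cells of cluster 6 had all 8 microglia markers above 0 in at least 25% of cells. The 28 cells of cluster 11 had 2 of 8, with Tmem119 at 0 in all 28, P2ry12 above 0 in 3 and the broader myeloid gene Itgam in 25. Slc16a3 was at 69.9 TP100K in cluster 11 and 4.75 in cluster 6, Slc2a3 at 28.6 and 0.705, Egln3 at 22.8 and 0.143, Pfkfb4 at 21.2 and 5.13, Ero1l at 59.5 and 2.92 and Bnip3 at 36.3 and 5.42. For Slc16a3 the difference was also in detection, with 22 of 28 cells above 0 against 14 of 51, whereas for Ero1l the shares were 6 of 28 and 12 of 51, so that few cells carried its mean. Calls by cluster are a description, since the clusters were built on these values.

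Under losartan, 9 members were above a log2 ratio of 1 in cells labelled microglia and 1 below -1, where 20.1% of all genes were above and 8.27% below. Ero1l (3.57), Kdm3a (2.31), P4ha1 (2.27), Hk2 (1.78), Bnip3 (1.35), Pgam1 (1.31), Slc2a1 (1.26), Pdk1 (1.24) and Bnip3l (1.10) were above and Slc16a3 (-2.23) was below. Ldha (0.18), Hif1a (-0.82) and Epas1 (0.16) were within a ratio of 1. Control cells were 16 of cluster 6 and 12 of cluster 11 and losartan cells 24 and 6, and within cluster 6 the ratio of Bnip3 was -1.81 and that of Pgam1 -0.34. The direction of both thus turned within the cluster. All 7 measured other HIF targets had a higher mean, with a median of 1.35, and the enzymes had a median of -0.04, where all genes had 0.24.

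Under losartan+anti-PD1, with 13 cells labelled microglia, none of the 6 measured other HIF targets had a higher mean than control, and their median log2 ratio was -0.49, whereas 9 of the 13 measured enzymes had one, with a median of 0.71. The median over all genes was -0.24. Of the members 6 were above a ratio of 1 and 1 below -1, where 12.2% of all genes were above and 25.4% below. Pgam1 (2.31), Hk1 (1.97), Pfkp (1.599), Tpi1 (1.495), Pfkfb4 (1.11) and Slc2a1 (1.02) were above and Ero1l (-1.56) was below, and without the highest cell of each group the ratio of Pfkfb4 was -1.04 and that of Slc2a1 0.57. Ldha (-0.48), Bnip3 (-0.78), Hif1a (0.33) and Epas1 (-0.08) were within a ratio of 1. The cells were 7 of cluster 6 and 6 of cluster 11.

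Myeloid cells, of which 25 were control, 34 losartan and 11 losartan+anti-PD1, had higher enzyme means under both losartan arms. Under losartan 13 of 14 enzymes were higher, with a median log2 ratio of 0.70 where all genes had 0.17. Above 1 were Aldoc (2.08), Hk2 (1.79), Tpi1 (1.71), Pfkl (1.59), Mxi1 (1.51), Hif1a (1.32) and Ero1l, which was at 0 in all 25 control cells and at 6.83 TP100K under losartan. Pfkfb3 (-1.32) was below, and 10.7% of all genes were above and 3.11% below. Slc2a1 (0.54), Ldha (0.54) and Epas1 (0.11) were within 1, and Bnip3 was not measured.

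Under losartan+anti-PD1 14 members were above 1 and none below -1, where 14.4% of all genes were above and 18.5% below. Among them were 7 of the 13 measured enzymes (Tpi1, Pfkl, Aldoa, Pgk1, Eno1, Hk1 and Pfkp), Pfkfb3 (1.45) and Slc16a3 (2.45), the targets Bnip3 (3.08), Ndrg1 (1.77), Ddit4 (1.57) and P4ha1 (1.20), and Hif1a (1.69), whose means were 11.7 TP100K under control and 39.8. Slc2a1 (-0.26), Ldha (0.55) and Epas1 (0.70) were within 1. Without the highest cell of each group the ratios of Ddit4 and P4ha1 were 0.69 and 0.47.

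Oligodendrocytes, 31 cells in the CD45-negative sort of which 29 were on the anti-PD1 plate, are described by 3 members. Ndrg1 had a mean of 51.1 TP100K, Bnip3l of 45.2 and Pfkfb4 of 4.87, with 21, 28 and 12 of the 31 cells above 0. In malignant cells of that sort Ndrg1 was at 2.42 and Bnip3l at 10.2 TP100K. Pfkfb4, an enzyme of the same family as Pfkfb3, was above 0 in no malignant cell of either sort, a count of 0 that allows a share of up to 2.03% of cells in the CD45-negative and 2.56% in the CD31-positive sort. Neither gene is particular to oligodendrocytes, since Ndrg1 was above 0 in 71% of TECs of cluster 3 and Pfkfb4 in 31.4% and 50% of microglia of clusters 6 and 11. The values of oligodendrocytes rest mostly on 1 plate and were not tested.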

How the data were processed

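Single cells of GL261 tumors were sorted into 16 plates and sequenced by Smart-seq2, and per the labels the authors' processing notes name Bowtie, TopHat, RSEM 1.2.8 and mm10. The authors kept cells with 1000 to 8000 detected genes and at least 20 housekeeping genes, clustered them with Seurat (resolution 0.4) and named cell types from the clusters. The values deposited for the CD31-positive and CD3-positive plates have the same sum in every cell and are TPM. Those deposited for the remaining 2 sorts, CD45-negative and CD45-positive, are expected counts by RSEM (82.2% and 73.8% of values above 0 are whole), with 3598 to 1896090 and 7946 to 1808020 reads per cell. The TPM cells keep no depth. Doublets were gated out by scatter at the sort, and no doublet caller was run.

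Groups were taken from the GEO labels. Every cell was scaled to 100000 (TP100K). Cell types were compared over plates, each plate giving 1 value for a type, by limma 3.58.1 (R 4.3.3) on log2(mean TP100K + 1) for TPM, and by edgeR 4.0.16 on summed counts, rounded to whole numbers, of types with at least 5 cells on a plate, in a fit over all 4 types of the CD45-positive sort. Both used the plate as a block because the compared types come from the same plate. The unit of these count tables was read from their values, since the study's methods name TPM throughout. P-values were adjusted over all genes tested (limma, those detected in 25% or more of one or the other type; edgeR, those kept by filterByExpr) and called below 0.05. With the plate as a block and no animal named, they measure how the difference between cell types varied over the plates. Each plate is also 1 treatment, so that variation includes any change of the difference with treatment. Treatment ratios (log2 of means plus 1 TP100K, groups of at least 10 cells) have no test. The exact binomial interval of the promoter share was computed with SciPy 1.17.1 and covers counting error only. The scripts were tested on simulated data with known changes.

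Members named in a tested comparison are those called, with both HIF alpha subunits, and in a treatment comparison those past a log2 ratio of 1 or -1, with Slc2a1, Ldha, Bnip3, Hif1a and Epas1. Members outside these rules, such as Car9, Gapdh in T cells and the genes of oligodendrocytes, were chosen after their values were seen. The members and lists were chosen with earlier results of these data known. Alternatives were other pseudocounts, filters, scalings, depth ranges, tools and left-out plates, cells or clusters. The left-out highest cells and the clusters of microglia were added after seeing the data. B cells, and types with few cells in a sort, were not compared. NK cells were compared between treatments only under losartan+anti-PD1 against control.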

Additional observations from a re-analysis of the deposited data

Results flagged for a closer look

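In the comparison of malignant cells with TECs, 3 of the 35 members examined had 1 plate whose difference lay far from the other 3 (by Dixon's 95% criterion for 4 values, which chance meets for about 1 in 20). Pgk1 had a log2 difference of 1.88 on the anti-PD1 plate and Pkm one of 0.52 there, where 8 cells with astrocyte markers carry the malignant label. Bnip3l had -0.61 on the control plate.

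For 3 genes the same treatment went opposite ways in different cell types, each past a log2 ratio of 1 and none of these differences tested, since each ratio rests on 1 plate a group. Under losartan+anti-PD1, Ero1l was at 2.09 against control in malignant cells of the CD45-negative sort, at -1.56 in microglia and at -1.78 in NK cells. In those NK cells (36, with 10 under control), 9 of 12 measured enzymes had a higher mean, with a median of 0.28 where all genes had 0.03. Above 1 were 3 enzymes, 1 gene of glucose transport and flux control and 1 other HIF target, and Ero1l was the 1 other HIF target below -1. The share of all genes past these limits is not given for NK cells. Under losartan, Pdk1 was at 1.24 in microglia and -1.59 in TECs. Slc16a3 was at 1.45 in malignant cells of the CD45-negative sort and at -2.23 in microglia, where the cluster 11 cells that carry most of its level were 12 of 28 under control and 6 of 30 under losartan.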

How the results depend on the processing

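Malignant cells against TECs gave 15 members higher in malignant cells and 6 in TECs. Without the replicate block for the plate these were 14 and 7. Leaving out a plate gave 6 to 17 and 5 to 8. No filter on low values gave 6 and 4, cells with 2000 to 6000 genes 5 and 6, a 75th percentile scaling 21 and 4 and the mean of log2 values 20 and 4. None of the 21 called members turned its direction there. For these alternatives the share of all genes called was not computed, so the counts cannot be set against it. Higd1a, at -0.11 and not called, was called higher in malignant cells with the 75th percentile scaling (1.01) and the mean of log2 values (0.67). Of the repeats of the called members' differences 24.2% fell short of the threshold, Slc2a1 with no filter and with the 75th percentile scaling among them. In the CD45-positive sort, where edgeR called none, DESeq2 called 1 member higher in myeloid cells, and members higher in microglia than in NK cells numbered 7 with DESeq2, 7 with limma, 3 with at least 2 cells a plate and 1 with microglia of cluster 6 alone. The cause was not tested.

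Of the medians of treatment ratios, 16 values moved under an alternative by over 1.5 times as a ratio, before the log, and are given below. The others moved by less, which can be wide beside a small median. With the 75th percentile scaling, other HIF targets of TECs under losartan went from 0.54 to 0.08, with all genes at -0.18. Enzymes went from -0.32 to -0.82 in T cells under anti-PD1, with all genes at -0.16. In microglia under losartan they went from -0.04 to -0.55, with all genes at 0.01. With the 75th percentile scaling the enzyme median of TECs under anti-PD1 turned from 0.18 to -0.47, with all genes at -0.33. That of TECs under losartan+anti-PD1 against anti-PD1 turned from -0.14 to 0.56, with all genes at 0.23. The other HIF targets of that comparison went from -0.87 to -0.13. In T cells, losartan+anti-PD1 against anti-PD1, the enzyme median went from 0.55 to 1.29, with all genes at 0.36. Among cells with 2000 to 6000 genes the enzyme median was 0.88 in malignant cells under losartan+anti-PD1 (CD31-positive sort, score difference 0.95). It was -0.21 under losartan in malignant cells of the CD45-negative sort. Other HIF targets of TECs had -0.16 in that range (losartan+anti-PD1 against anti-PD1). For T cells, other HIF targets had -0.23 with no filter (anti-PD1) and 0.0043 with the mean of log2 values (losartan+anti-PD1 against anti-PD1), and enzymes -0.15 within cluster 4. For microglia under losartan, enzymes had -0.75 within cluster 6 and other HIF targets 0.17 there, 0.44 at 1500 to 4000 genes and 0.67 with the mean of log2 values. For myeloid cells under losartan+anti-PD1, other HIF targets had 0.50 with a pseudocount of 10 and 0.70 with no filter. The share of promoters with ACGTG alone was 73.5%.

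Of the repeats of single ratios past 1 or -1, 27.2% moved by over 1.5 times and 71.4% did not, and 9 turned. They were Epas1 in TECs (losartan, -0.41 within clusters 7 and 12), Ankrd37 in TECs (losartan+anti-PD1 against anti-PD1, 0.10 at 2000 to 6000 genes), Slc16a3 in CD45-negative malignant cells (losartan+anti-PD1, -0.063 at 2000 to 6000 genes), Tpi1 in T cells (losartan+anti-PD1 against anti-PD1, -0.0072 within cluster 4), and in microglia Pgam1 (losartan, -0.076 with the mean of log2 values, -0.34 within cluster 6), Bnip3 (losartan, -1.65 at 1500 to 4000 genes, -1.81 within cluster 6) and Pfkfb4 (losartan+anti-PD1, -1.04 without the highest cells). The 2000 to 6000 gene range could not be run for losartan malignant cells of the CD31-positive sort, with 4 such cells.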
